A study of Mus musculus with 10 samples.

Results

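The 10 genes described here are 9 genes of the circadian clock and its output (Arntl, Clock, Nr1d1, Nr1d2, Per1, Per2, Cry1, Dbp and Tef) and Nfil3, measured in mouse regulatory T cells (Treg cells). They were matched by gene symbol in a table of 13252 genes, and all 10 were found. The set was chosen by the measured difference between Helios+ and Helios− cells, because Nr1d1 and Nfil3 differed in opposite directions in it. For that reason the differences of the 10 genes between the groups are given as a description, and nothing is read from tests of them. Helios, encoded by Ikzf2, is a transcription factor of the Ikaros family. RNA-seq libraries had been made from Helios+ cells sorted as CD4+RFP+GFP+ and from Helios− cells sorted as CD4+RFP+GFP−, with 5 libraries in each group. Both groups were sorted on CD4 and RFP, and the sample labels link GFP to Helios but leave the RFP reporter undefined. The design text of the series names wild-type and Helios-knockout cells instead, and the sample labels set the groups here. Age, tissue and time of day of the harvest are not given, and nothing says whether the libraries of a group came from separate mice, so p-values measure only the spread between these libraries.

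The circadian clock is a feedback loop of transcription that runs in most cells of the body. Clock and Arntl encode the proteins CLOCK and BMAL1, which together switch on genes that carry an E-box, among them the Per and Cry genes, whose proteins then inhibit them. Nr1d1 and Nr1d2 encode the nuclear receptors REV-ERBα and REV-ERBβ, repressors that bind the RRE, an element through which ROR receptors activate. Arntl and Nfil3 are known targets of this repression. Dbp and Tef encode bZIP activators that bind the D-box, and NFIL3 (also called E4BP4) is a bZIP repressor of the same element.

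Promoter sequences are shown for Nr1d1 and Nfil3, the genes with the largest differences, for Arntl, which differed in the same direction as Nfil3, and for Per1, which varied most between replicates. Tef and Dbp also had positive changes, and their promoters are not shown. They are RefSeq promoters of GRCm38.p6, from 250 bases before to 50 bases after a transcript start, written 5′ to 3′ on the gene's strand. Capitals mark matches to short motifs. The motifs searched on both strands were the E-box CACGTG, the E′-box CACGTT, the D-box TTANGTAA, the RRE core as TAGGTCA or TGGGTCA, and the CRE TGACGTCA.
Nr1d1 promoter, chr11:98775328-98775627, minus strand: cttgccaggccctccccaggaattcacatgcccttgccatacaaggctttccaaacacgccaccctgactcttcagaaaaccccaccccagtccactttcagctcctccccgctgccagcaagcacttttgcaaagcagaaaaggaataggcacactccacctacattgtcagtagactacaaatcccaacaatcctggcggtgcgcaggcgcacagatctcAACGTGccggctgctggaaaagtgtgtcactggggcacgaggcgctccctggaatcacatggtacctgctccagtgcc
Nfil3 promoter, chr13:52980990-52981289, minus strand: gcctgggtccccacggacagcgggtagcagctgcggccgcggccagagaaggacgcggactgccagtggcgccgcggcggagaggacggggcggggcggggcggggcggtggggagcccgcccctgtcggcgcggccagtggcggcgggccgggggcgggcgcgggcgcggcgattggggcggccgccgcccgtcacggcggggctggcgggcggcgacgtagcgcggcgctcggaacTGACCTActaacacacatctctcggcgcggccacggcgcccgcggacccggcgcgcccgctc
Arntl promoter, chr7:113207261-113207560, plus strand: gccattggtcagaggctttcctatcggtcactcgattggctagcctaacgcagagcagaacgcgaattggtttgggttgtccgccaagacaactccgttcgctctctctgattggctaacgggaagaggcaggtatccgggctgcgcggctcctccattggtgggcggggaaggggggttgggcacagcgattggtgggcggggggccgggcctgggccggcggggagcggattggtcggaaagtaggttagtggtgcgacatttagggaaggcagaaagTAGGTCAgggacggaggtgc
Per1 promoter, chr11:69098699-69098998, plus strand: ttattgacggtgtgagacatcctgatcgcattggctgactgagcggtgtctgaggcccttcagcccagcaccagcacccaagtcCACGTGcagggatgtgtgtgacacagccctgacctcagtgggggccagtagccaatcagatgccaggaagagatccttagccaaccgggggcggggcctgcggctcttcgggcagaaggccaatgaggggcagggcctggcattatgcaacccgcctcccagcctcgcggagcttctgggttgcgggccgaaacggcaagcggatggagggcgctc

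The RRE core TAGGTCA lay in the promoters of Nfil3 and of Arntl, on the minus strand at bases 239 to 245 of the Nfil3 window and on the plus strand at bases 281 to 287 of the Arntl window, counted from 1 at the 5′ end. Arntl and Per1 each have another promoter in the RefSeq table, and neither of these held a match. The windows of Arntl overlap. Of 32851 promoters of this length, 2.61% held TAGGTCA and 3.98% held TGGGTCA. Nr1d1 held an E′-box at bases 223 to 228, read on the minus strand, a motif that 4.68% of promoters held. Per1 held an E-box at bases 85 to 90, a motif of 7.15% of promoters. Cry1 held an E-box and an E′-box, and each of the 2 Tef promoters an E-box. No promoter of a member held the D-box or the CRE, which 2.32% and 1.79% of promoters held. Promoters of 9 of the 10 members were found, 14 windows in all, and 7 of the 14 held a match. The share of all promoters with a match to any of the motifs was not counted, and some windows of 1 gene overlap. Nothing is read from the 7 of 14. No 2 matches overlapped. A match is a run of letters and was not tested as a binding site. Any link between the level of Nr1d1 and those of Arntl and Nfil3 was not tested.

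The libraries held between 4872348 and 6948692 reads. Ikzf2 averaged 10367 ± 456 normalized counts in Helios+ and 487 ± 56.5 in Helios− libraries (SD, n = 5 each; exact two-sided permutation p = 0.0079, the smallest that 252 assignments can give). Foxp3, the factor that defines Treg cells, averaged 3570 ± 201 in Helios+ and 3526 ± 226 in Helios− libraries (exact permutation p = 0.754), and Cd4 3208 ± 276 and 3334 ± 446 (exact permutation p = 0.667). Of 7 Treg markers, Foxp3 and Cd4 among them, 4 were called higher and 0 lower in limma. Their sums were 15847 to 18778 normalized counts in Helios+ and 13963 to 16932 in Helios− libraries. Limma called 24.8% of all genes tested, 14.1% higher and 10.7% lower. Markers of other cells were measurable. The summed level of 7 B cell markers, led by Cd22 and Ms4a1, ranged from 1499 to 2124 normalized counts in Helios+ and from 1717 to 2412 in Helios− libraries, and 1 of the 7 was called, lower. Of 8 macrophage markers 7 were in the table, led by Lyz2 and Itgam, with sums of 284 to 524 in Helios+ and 204 to 343 in Helios− libraries. Of these, 5 were tested and 1 was called, higher, and Cd14 had libraries at 0. The 6 NK cell markers, led by Eomes and Gzma, summed to 181 to 202 in Helios+ and 166 to 235 in Helios− libraries, with 1 called lower. The CD8 genes Cd8b1 and Cd8a summed to 311 to 377 in Helios+ and 347 to 413 in Helios− libraries, and neither was called. Alas2, the 1 red cell marker of 5 in the table, had at most 13.6 in Helios+ and 19.7 normalized counts in Helios− libraries. The part of these cells in the results below was not tested. In libraries from bulk cells, fewer cells of a type and less RNA per cell cannot be told apart.

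Nr1d1, the gene of REV-ERBα, was about 4 times lower in Helios+ than in Helios− cells. It had 16.8, 9.20, 5.98, 10.7 and 10.4 normalized counts in Helios+ libraries 1 to 5, against 43.3, 40.2, 44.8, 53.0 and 33.1 in Helios− libraries 1 to 5. Every Helios+ library lay below every Helios− library. The means were 10.6 ± 3.92 in Helios+ and 42.9 ± 7.24 in Helios− cells (SD, n = 5 each), 4.04-fold lower in Helios+ cells. On the log2(normalized count + 1) scale used for every difference here, the change was −1.97 ± 0.25 (SE), and the 5 differences within a replicate number ran from −2.71 to −1.32. The values rest on few reads, 7 to 16 per Helios+ and 34 to 62 per Helios− library.

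Nr1d1 lies on chromosome 11 (98767932 to 98775333, minus strand, GENCODE M21 on GRCm38) tail to tail with Thra, the gene of thyroid hormone receptor α on the plus strand. They share 263 exon bases, 8.55% of those of Nr1d1, and the strand setting of the counting is not given in the sources used here. Thra was lower in Helios+ cells as well, at 114 ± 13.5 in Helios+ and 202 ± 25.4 normalized counts in Helios− cells, a change of −0.83 ± 0.11 (limma adjusted p = 5.5e-05). The groups did not overlap for Thra. If Thra reads were spread evenly over its exons, the shared bases would hold a normalized count of 6.48 in Helios+ and of 11.5 in Helios− cells. Nr1d1 itself averaged 10.6 in Helios+ and 42.9 in Helios− cells. The Helios− minus Helios+ differences were 5.05 for these Thra counts and 32.3 for Nr1d1. Whether reads were spread evenly was not tested. How many reads of one gene were counted for the other was not tested.

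Nfil3 was over 3 times higher in Helios+ cells. It had 99.5, 92.0, 108, 121 and 95.0 normalized counts in Helios+ libraries 1 to 5, against 26.9, 32.8, 37.1, 32.5 and 19.5 in Helios− libraries 1 to 5. The lowest Helios+ library, at 92.0, was far above the highest Helios− library, at 37.1. The means were 103 ± 11.8 in Helios+ and 29.8 ± 6.80 in Helios− cells (SD, n = 5 each), 3.46-fold higher in Helios+ cells, with a change of 1.78 ± 0.17 (SE). Within replicate numbers the difference ran from 1.46 to 2.23. Nfil3 (chromosome 13, 52967209 to 52981073, minus strand) shares no exon base with another annotated gene.

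**Figure D1:**
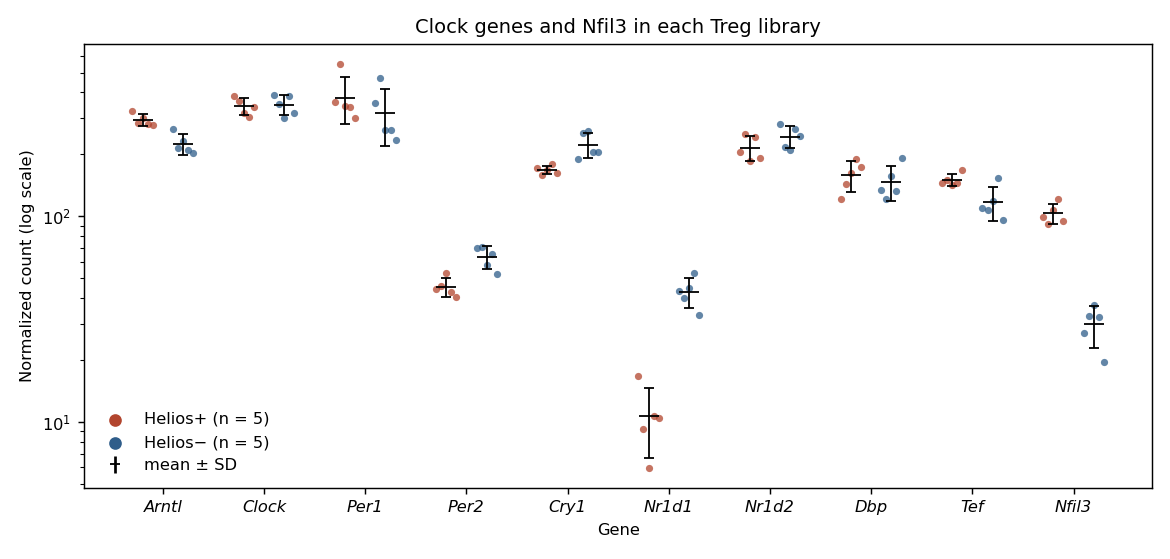
Normalized counts on a log scale of the 10 genes, each point being 1 library (5 Helios+ left, 5 Helios− right) and each bar a mean with its SD. The groups stand apart for Nr1d1 (5.98 to 16.8 in Helios+, 33.1 to 53.0 in Helios−), Nfil3, Arntl and Cry1, and overlap for the other 6.

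The activators of the loop, Arntl and Clock, did not share a pattern. Arntl had 325, 285, 302, 282 and 279 normalized counts in Helios+ libraries 1 to 5, against 267, 216, 232, 209 and 202 in Helios− libraries 1 to 5. Each Helios+ library was above the highest Helios− library, by a small margin. The means were 295 ± 19.1 in Helios+ and 225 ± 25.7 in Helios− cells, 1.31-fold higher in Helios+ cells, with a change of 0.39 ± 0.09 (SE) that ran from 0.28 to 0.46 within replicate numbers. Clock, whose protein pairs with BMAL1, averaged 343 ± 33.3 in Helios+ and 349 ± 39.3 in Helios− cells, with a change of −0.02 ± 0.09 (SE). Its libraries spanned 305 to 386 in Helios+ and 300.4 to 389 normalized counts in Helios− cells and overlapped almost entirely.

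The inhibitors went different ways. Cry1 had 171, 159, 168, 179.7 and 162 normalized counts in Helios+ libraries 1 to 5, against 191, 253, 259.9, 206 and 206 in Helios− libraries 1 to 5. The groups did not overlap, and the Helios+ libraries lay closer together, with an SD of 8.08 in Helios+ and 31.0 in Helios− cells. The means were 168 in Helios+ and 223 in Helios− cells, a change of −0.40 ± 0.10 (SE). Per2 had 44.0, 46.0, 53.0, 42.7 and 40.6 normalized counts in Helios+ libraries 1 to 5, against 70.3, 70.9, 57.9, 65.8 and 52.6 in Helios− libraries 1 to 5. The highest Helios+ library, at 53.0, was just above the lowest Helios− library, at 52.6, so the groups touched. Per2 was lower in the Helios+ library in 5 of 5 replicate numbers, with a change of −0.48 ± 0.14 (SE). Per1 had 359, 549.5, 343, 339 and 300.2 normalized counts in Helios+ libraries 1 to 5, against 354, 472, 262, 264 and 236 in Helios− libraries 1 to 5. The groups overlapped widely, and replicate 2 was the highest in both. The Per1 change was 0.27 ± 0.20 (SE), with the Helios+ library higher in 5 of 5 replicate numbers, by 0.02 to 0.39.

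Nr1d2, the gene of REV-ERBβ, did not share the large difference of its paralog Nr1d1. It averaged 215 ± 29.5 in Helios+ and 244 ± 30.3 normalized counts in Helios− cells, with a change of −0.18 ± 0.11 (SE). It was lower in the Helios+ library in 4 of 5 replicate numbers, and its ranges of 185 to 251 in Helios+ and 209.7 to 279.97 in Helios− libraries overlapped. Nr1d2 had 166 to 312 reads in each library, many more than Nr1d1.

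Of the D-box activators, Tef was somewhat higher in Helios+ cells. It had 146, 149.7, 142, 146 and 168 normalized counts in Helios+ libraries 1 to 5, against 110.1, 107, 118, 154 and 95.4 in Helios− libraries 1 to 5. Replicate 4 of Helios− lay among the Helios+ libraries, and the other 4 below them. The Tef change was 0.38 ± 0.12 (SE), and it was higher in the Helios+ library in 4 of 5 replicate numbers. Dbp averaged 158 ± 26.6 in Helios+ and 147 ± 28.3 normalized counts in Helios− cells, a change of 0.10 ± 0.14 (SE), with 3 replicate numbers higher and 2 lower. Dbp shares 539 exon bases with Sphk2, a sphingosine kinase gene on the other strand, which averaged 188 ± 19.8 in Helios+ and 198 ± 15.0 in Helios− cells.

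**Figure D2:**
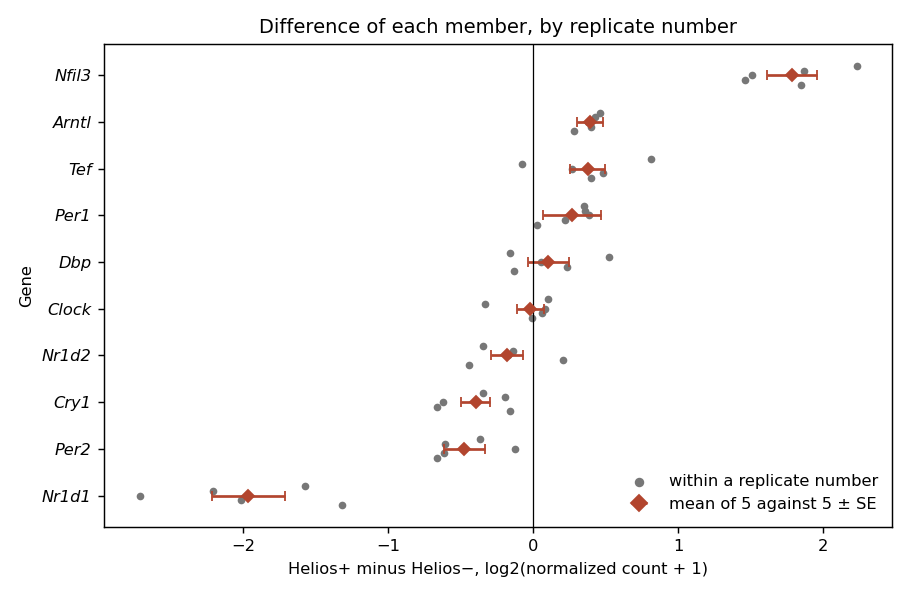
Helios+ minus Helios− difference on the log2(normalized count + 1) scale for each of the 10 genes, with a grey point for each of the 5 replicate numbers and a diamond for the difference of group means with its SE. Nfil3 stands at 1.78 and Nr1d1 at −1.97, and the other 8 lie between −0.48 and 0.39.

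As a count, 5 of the 10 changes were positive and 5 negative, with a median of 0.04 beside −0.02 over all 10718 genes tested. The groups did not overlap for 4 of the 10 members, where 19.5% of all genes tested had groups that did not overlap. A limma fit over all genes called 3 members higher (Nfil3, Arntl and Tef) and 3 lower (Nr1d1, Cry1 and Per2), and it called 24.8% of all genes, 14.1% higher and 10.7% lower. With the replicate number as a block, the fit called 7 of the 10, with Per1 added, and 37.3% of all genes, 18.9% higher and 18.5% lower. Since the Helios+ minus Helios− difference picked the set, nothing is read from any of these counts.

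Levels of different genes were compared per kilobase of exon, as mean normalized counts per kb. In Helios+ cells the order was Per1 (67.2), Dbp (52.8), Nfil3 (50.9), Cry1 (50.3), Nr1d2 (39.8), Arntl (39.2), Clock (25.0), Tef (19.1), Per2 (7.73) and Nr1d1 (3.45). The library ranges of the first 4 overlapped from neighbour to neighbour, as did those of Nr1d2 and Arntl, and the remaining neighbours were separate. In Helios− cells the order was Cry1 (66.8), Per1 (56.4), Dbp (49.2), Nr1d2 (45.1), Arntl (29.9), Clock (25.4), Tef (14.9), Nfil3 (14.7), Nr1d1 (13.9) and Per2 (10.8). There, Cry1 to Nr1d2 overlapped from neighbour to neighbour, Arntl overlapped Clock, and so did the last 4 in turn. Nfil3 and Nr1d1, at like levels per kb in Helios− cells, were 50.9 and 3.45 per kb in Helios+ cells.

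Whether the members differed between replicate numbers is a separate question, since each number occurs once in each group. The labels do not say what a number shares. Same-numbered libraries deviated together, and limma's F-test over the 4 replicate coefficients, with the group in the fit, called 1963 genes, or 18.3% of those tested. That count was 1280 without both libraries of replicate 1, 1083 without those of replicate 3 and 1142 without Helios− replicate 3 alone. Of the 10 members it called 1, Per1 (limma adjusted p = 3.5e-05). Replicate 2 of Per1 was the highest in both groups, at 549.5 in Helios+ and 472 normalized counts in Helios− cells. Replicate 5 was the lowest in both, at 300.2 in Helios+ and 236 in Helios− cells. On average over both groups, replicate 2 deviated from the mean by 0.60 on the log2 scale and replicate 5 by −0.34. The call rests on replicate 2: without both of its libraries the adjusted p of the limma F-test was 0.0901. Dbp came next, with an unadjusted p of 0.0292 and a limma adjusted p of 0.113. Its replicates 1 and 2, at −0.24 and −0.19, lay below the mean, where Per1 was above. For the other 8 members the limma adjusted p ran from 0.228 to 0.824. Nr1d1, at 0.633, and Nfil3, at 0.372, were among them.

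Among the other pathway genes the F-test over replicate numbers called 5 of 25 enzymes and cofactors, 3 of 11 output genes, 2 of 9 NFIL3-linked genes and 0 of 5 loop genes (2 at an unadjusted p under 0.05), beside 18.3% of all genes. The 3 output genes were Tsc22d3 (limma adjusted p = 4.45e-09), Fkbp5 (1.52e-08) and Klf9 (8.8e-05). Tsc22d3, Fkbp5 and Klf9, like Per1, are also known as genes that glucocorticoids induce. Tsc22d3, which encodes the anti-inflammatory protein GILZ, had 769, 1444, 393, 228 and 460.1 normalized counts in Helios+ libraries 1 to 5, against 980.5, 2067, 723, 441 and 678 in Helios− libraries 1 to 5. Fkbp5, a co-chaperone of steroid receptors, had 1194, 1288, 558, 418 and 388 in Helios+ libraries 1 to 5, against 987, 1257, 371, 288 and 236 in Helios− libraries 1 to 5. Klf9, a Krüppel-like factor, had 91.2, 237, 104, 70.9 and 69.5 in Helios+ libraries 1 to 5, against 48.0, 86.8, 34.95, 35.06 and 22.4 in Helios− libraries 1 to 5. Replicate 2 was the highest library of each of these genes in each group, and Tsc22d3 was lowest in replicate 4, unlike Per1. Likeness of these patterns to that of Per1 was not tested. Sgk1, another output gene that glucocorticoids induce (limma adjusted p = 0.904), and the output gene Wee1 (0.749) were not called by this F-test. The cause of the variation by replicate number was not tested.

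**Figure D3:**
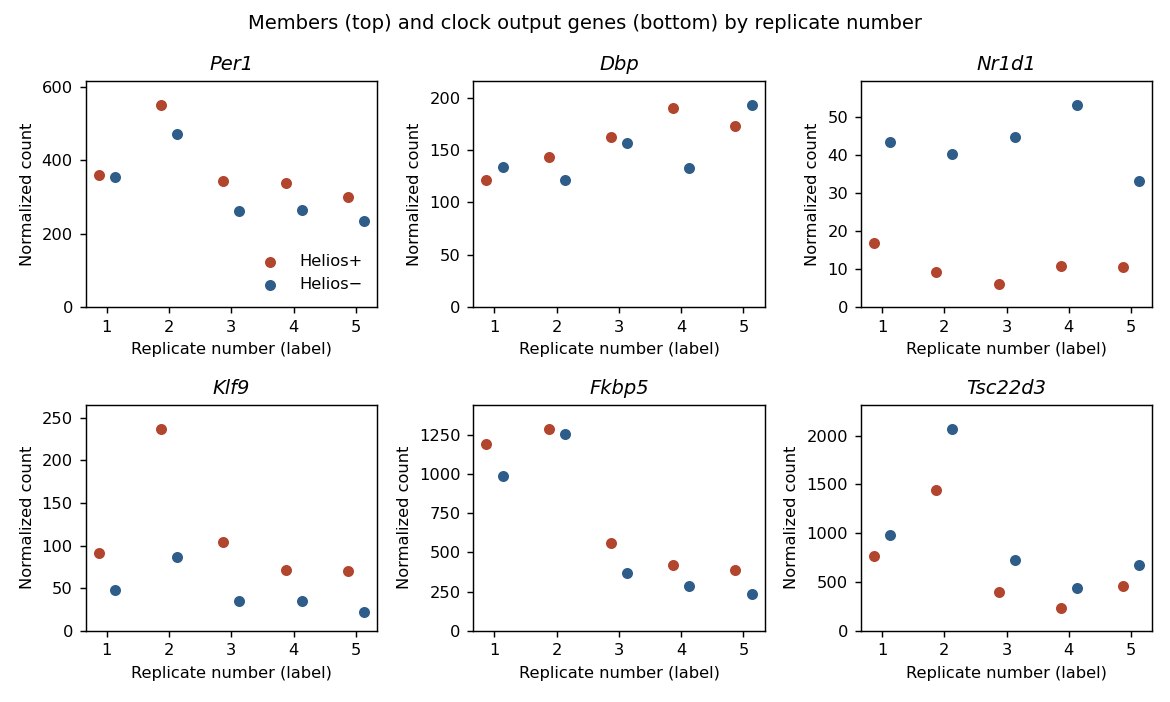
Normalized counts by replicate number for the members Per1, Dbp and Nr1d1 (top) and the output genes Klf9, Fkbp5 and Tsc22d3 (bottom), with a point for each Helios+ and each Helios− library. Replicate 2 is the highest in both groups for Per1 (549.5 and 472) and for the 3 output genes, but not for Dbp or Nr1d1.

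The other genes of the clock loop include Bhlhe40 and Rora, both higher in Helios+ cells. Of 10 such genes 7 were in the table and 5 had a mean of at least 10 and were tested. In limma 2 of them, Bhlhe40 and Rora, were higher and 3 were not called. The median change was 0.99 beside −0.02 over all genes. That median is the value of 1 gene, Npas2, which was not called. Npas2 had 11 to 22 reads per Helios+ and 2 to 13 per Helios− library. Hlf and Bhlhe41, too low to be tested, do not enter the median, and both had lower means in Helios+ cells. Limma called 24.8% of all genes, 14.1% higher and 10.7% lower. Bhlhe40, the gene of the E-box repressor DEC1, had 225, 234, 285, 311 and 247 in Helios+ libraries 1 to 5, against 36.3, 48.7, 53.5, 60.7 and 66.2 in Helios− libraries 1 to 5. It rose by 2.29 ± 0.15 (SE; limma adjusted p = 2.63e-08). Rora, the gene of the RRE activator RORα, averaged 195 ± 30.0 in Helios+ and 69.9 ± 14.2 in Helios− cells and rose by 1.48 ± 0.15 (SE; limma adjusted p = 1.92e-06). Per3, Cry2 and Npas2 were not called, with changes of 0.34 ± 0.24, 0.21 ± 0.13 and 0.99 ± 0.46 (SE). Hlf, a relative of Dbp and Tef, was too low to be tested, at 3.82 ± 1.92 in Helios+ and 12.5 ± 1.92 normalized counts in Helios− cells, and without a filter on low values limma called 1 gene of this list lower.

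Most of the enzymes and cofactors that act on clock proteins were not called, as was the case for most genes tested. Of 29 genes 25 were tested, 2 were higher, 3 lower and 20 not called in limma, which called 24.8% of all genes, and the median change was −0.10. Sirt1, a NAD-dependent deacetylase, averaged 196 ± 24.6 in Helios+ and 272 ± 22.2 in Helios− cells, a change of −0.47 ± 0.10 (SE; limma adjusted p = 0.00184). Prkaa1, a catalytic subunit of AMPK, had a change of −0.30 ± 0.08 and the coactivator gene Crebbp of −0.22 ± 0.07. Csnk1d, the casein kinase that phosphorylates PER proteins, rose to 744 ± 34.5 in Helios+ cells, against 622 ± 38.4 in Helios− cells (change 0.26 ± 0.06, limma adjusted p = 0.00813). Fbxw11, a ubiquitin ligase subunit, had a limma adjusted p of 0.0462. With the replicate block limma called 3 of the 25 higher and 7 lower, beside 37.3% of all genes in that fit. Without the block, Crebbp was not called with quantile normalization (limma adjusted p = 0.647). Nor was it called there with 1 library left out, this being Helios+ replicate 1 (0.0764), Helios+ replicate 4 (0.0779), Helios− replicate 2 (0.0563) or Helios− replicate 5 (0.0517). With the replicate block and all 10 libraries its limma adjusted p was 0.000301. Btrc, a ligase subunit that marks PER proteins, was not called, with a change of −0.05 ± 0.11.

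Of the 11 output genes tested, 3 were higher and 1 lower in Helios+ cells in limma, with a median change of 0.04 beside −0.02 over all genes. Limma called 24.8% of all genes in that fit, 14.1% higher and 10.7% lower. Wee1, a kinase that restrains entry into mitosis, averaged 63.9 ± 8.56 in Helios+ and 18.4 ± 7.25 in Helios− cells and rose by 1.81 ± 0.23 (SE; limma adjusted p = 2.43e-05). Sgk1, a serum- and glucocorticoid-induced kinase, averaged 82.1 ± 9.67 in Helios+ and 125 ± 10.6 in Helios− cells, a change of −0.60 ± 0.11 (limma adjusted p = 0.000894). Klf9 had a change of 1.30 ± 0.38 and Nampt, an enzyme of NAD synthesis, of 0.25 ± 0.08. In the fit without the block, the call of Klf9 was lost when Helios− replicate 1, 3 or 5 was left out alone (limma adjusted p = 0.0666, 0.0732 and 0.0512). Leaving out Helios+ replicate 2, 3 or 4 ended the call of Nampt (limma adjusted p = 0.0749, 0.0693 and 0.064), as did leaving out Helios− replicate 2 or 3 (0.0667 and 0.0645). With the replicate block and all 10 libraries, the limma adjusted p was 1.82e-07 for Klf9 and 0.0141 for Nampt. Both genes were higher in the Helios+ library in 5 of 5 replicate numbers. With the replicate block limma called 4 higher and 3 lower of the 11, again beside 37.3% of all genes. It then called Fkbp5 higher (change 0.43, limma adjusted p = 0.000375) and Tsc22d3 lower (change −0.65, limma adjusted p = 1.3e-06), which without the block had limma adjusted p-values of 0.667 and 0.471. Tsc22d3 and Fkbp5 differed in direction within replicate numbers, and the cause was not tested.

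Genes linked to NFIL3 in lymphocytes were also listed. Of 13 genes 9 were tested, 2 were higher, 2 lower and 5 not called in limma. Limma called 24.8% of all genes, and the median change was 0.27 beside −0.02 over all genes. Tox, a nuclear factor of T cell and innate lymphoid development, averaged 1073 ± 105 in Helios+ and 559.7 ± 82.4 in Helios− cells, a change of 0.94 ± 0.10 (limma adjusted p = 3.37e-06). Id2, an inhibitor of E proteins, rose by 0.69 ± 0.15 (limma adjusted p = 0.00286). Il4ra, a subunit of the interleukin-4 receptor, averaged 1391 ± 115 in Helios+ and 2099 ± 149 in Helios− cells, a change of −0.59 ± 0.07, and Prf1 (perforin) had a change of −0.73 ± 0.18. Havcr2 (Tim-3), which NFIL3 is known to induce in T cells, averaged 21.03 ± 7.64 in Helios+ and 12.1 ± 5.71 normalized counts in Helios− cells and was not called (limma adjusted p = 0.0972, or 0.0319 with the replicate block). Il10 averaged 14.3 ± 6.79 in Helios+ and 8.12 ± 3.06 in Helios− cells (limma adjusted p = 0.2). Foxp3, Eomes and Il7r were not called either.

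**Figure D4:**
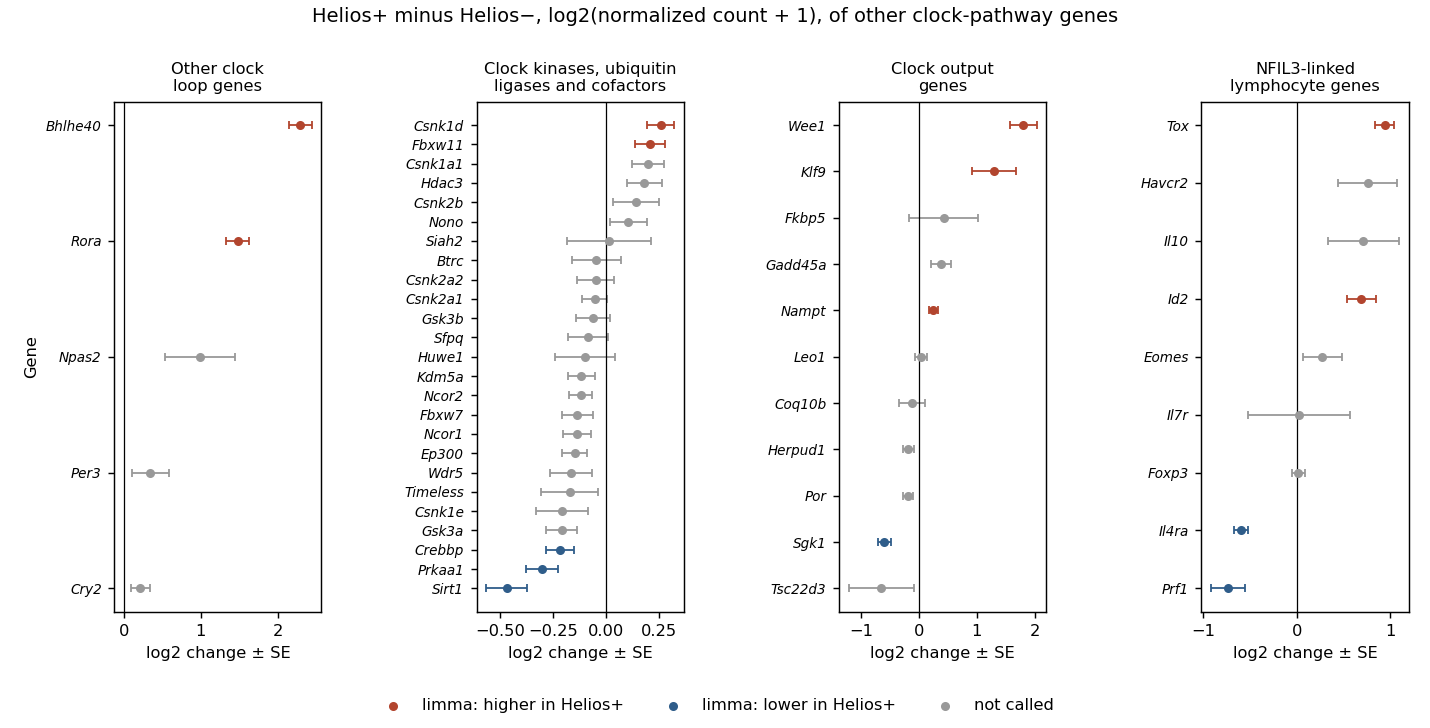
Helios+ minus Helios− change with its SE on the log2(normalized count + 1) scale for the tested genes of 4 clock-pathway lists, coloured by the limma call. In the first panel Bhlhe40 stands at 2.29 and Rora at 1.48, and the 25 kinases, ligases and cofactors in the second lie between −0.47 and 0.26.

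Profiles of genes outside the pathway were compared with those of Nr1d1 and Nfil3 over the 10 libraries. Likeness was the root mean square difference of log2 profiles, each centred on its own mean, over genes with a mean of at least 50. This measure includes the Helios+ minus Helios− difference that picked Nr1d1 and Nfil3, and likeness beyond that difference was not tested. The nearest to Nr1d1 were Ly6a (0.31), a surface protein gene also known as Sca-1, Pde3b (0.32), a phosphodiesterase gene, and Prg4 (0.33), the gene of lubricin. Ly6a averaged 113 ± 18.6 in Helios+ and 455 ± 33.8 normalized counts in Helios− cells, a change of −2.02 beside −1.97 for Nr1d1. The nearest to Nfil3 were Endod1 (0.18), Gpr55 (0.19), a G protein-coupled receptor gene, and Tspan3 (0.19), a tetraspanin gene. Gpr55 averaged 98.0 ± 11.6 in Helios+ and 29.5 ± 3.86 normalized counts in Helios− cells. These counts, not scaled by exon length, were close to those of Nfil3.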

How the data were processed

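The authors deposited 1 table with 13252 genes and 10 libraries, whose values are a signal: gene counts scaled by a size factor for each library. Per the submitters' processing notes, mm10, HISAT2 2.0.4, HTSeq and DESeq2 were used, without the role of each. Annotation and strand setting: not given in the sources used here. Dividing by the value of 1 read gave whole reads (tolerance 0.001) for 100% of values, which served the count tests. In each of 20 within-group pairs of libraries, counts differed beyond sampling noise.

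Genes with a mean of at least 10 (10718) were tested on log2(normalized count + 1) with limma 3.58.1 (R 4.3.3, trend and robust), group as the only term, Benjamini-Hochberg adjusted p under 0.05. Such log2 changes understate those of low genes. Per the rule for pairing, deviations from the group means were correlated across genes. They correlated by 0.15 to 0.48 for the 5 shared replicate numbers, above 0.1 in all 5, so the numbers were taken to pair the libraries. The main fit did not use this pairing. Calls, adjusted p-values and SEs of Helios+ minus Helios− changes come from it unless the block is named. They therefore include the spread between replicate numbers. Between different numbers the correlation reached 0.117, also above 0.1, where the lowest same-number value was 0.146 (replicate 5). Alternatives were a pseudocount of 0.5 or 5, no filter or a mean of at least 50, TMM, quantile normalization, edgeR 4.0.16, DESeq2 1.42.0, the block and leaving out each library. The tests were checked on simulated data. Exons came from GENCODE M21. The members and the lists were chosen with earlier results of these data known. Some genes are not reported here and enter no list count. Named genes were the members, genes sharing exons with Nr1d1, up to 4 called genes of each list, the 2 most abundant markers of each other cell type and the 3 nearest profiles. Tsc22d3, Fkbp5, Havcr2, Il10, Hlf, Sphk2 and any further gene were picked with their values in view.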

Additional observations from a re-analysis of the deposited data

Results flagged for a closer look

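Among 50 groups of 5 libraries checked, 2 for each of 25 genes, 7 held a library that stood far from the other 4, where about 1 in 20 is flagged by chance. Per1 in Helios+ replicate 2 was the highest, at 549.5 normalized counts, against 300.2 to 359 in the other 4. Klf9 in Helios+ replicate 2 was the highest as well, at 236.7, against 69.5 to 104. Sgk1 was high in Helios+ replicate 2, at 98.7 against 73.5 to 80.7, and in Helios− replicate 3, at 143.1 against 116 to 122. Prf1 in Helios− replicate 5 was high, at 97.32 against 65.6 to 73.2. Sirt1 in Helios+ replicate 5 was high, at 238.8 against 178 to 193. Tox in Helios+ replicate 1 was low, at 885.5 against 1113 to 1136.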

How the results depend on the processing

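The number of members with a positive change stayed within 1.5 times of 5 under every alternative run, and Nr1d1 ranged from −2.30 to −1.64 and Nfil3 from 1.64 to 1.87. The replicate block and the filters on low values cannot alter these changes. Nr1d1 was too low for the fit with a mean of at least 50. With the replicate block limma called 1979 genes lower, 7 clock enzymes and cofactors lower and 3 output genes lower. The exact sign-flip p of Ikzf2 within the 5 pairs was 0.0625, the smallest possible. DESeq2 called 6 enzymes and cofactors lower, and 1124 genes as varying by replicate number. Without a filter limma called 1 enzyme or cofactor higher, 1 loop gene lower and 2 output genes lower. With 1 library left out in turn, enzymes and cofactors called higher ranged from 1 to 2, output genes called higher from 1 (without Helios− replicate 3) to 3, and output genes called lower from 1 to 3 (3 without Helios− replicate 1). Without replicate 2, an alternative added after the data were seen, 0 members varied by replicate number; without any other number it was 1. The causes were not tested. Counts of 7 to 16 reads limit the precision of Nr1d1 in Helios+ cells.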

Other observations

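Of all genes with a mean of at least 50, those nearest to Per1 over the 10 libraries, a comparison added after its values were seen, were Nrip1, a nuclear receptor corepressor gene (root mean square log2 difference 0.12), Tnfaip3, the gene of the NF-κB inhibitor A20 (0.15), and Il10ra, a subunit of the interleukin-10 receptor (0.17). Il7r, a subunit of the interleukin-7 receptor, also varied by replicate number, from 909 to 3631 normalized counts in Helios+ and from 867 to 3606 in Helios− libraries (limma F-test, adjusted p = 1.43e-13).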
